A study of Mus musculus with 12 samples.

Results

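The subunits of the mitochondrial respiratory chain were followed through the colon of mice of 4 genotypes on Affymetrix whole-transcript arrays. The set was drawn by gene name alone, from platform symbols that begin as the subunit families do (Nduf, Sdh, Uqcr, Cox4 to Cox8 and Atp5). No measured value entered that rule, but the set as a whole was chosen with earlier results of these data known. Where a gene had several probe sets, groups of probes read together as 1 signal, the brightest over all arrays stood for it. The rule gave 80 genes of 22180 on the array with exactly 1 symbol: 31 of complex I, 4 of complex II, 7 of complex III, 19 of complex IV, 17 of complex V and 2 pseudogenes, Atp5c1-ps and Uqcrh-ps1. Ndufa4 was counted with complex IV, to which its protein is now assigned despite its name, and its relative Ndufa4l2 was placed beside it. Subunits whose only probe sets carry several symbols, among them Cox6c, Ndufb2, Ndufb4, Ndufs6 and Uqcr10, were not analysed here.

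Each genotype had 3 arrays of colon RNA, 12 in all. IL10KO mice (IL10-/- STING+/+) lack interleukin-10, a cytokine that restrains inflammation, and are a standard model of spontaneous colitis. DKO mice (IL10-/- STING-/-) lack interleukin-10 and STING, the adaptor through which cytosolic DNA switches on interferon genes. SKO mice (IL10+/+ STING-/-) lack STING alone, and WT mice (IL10+/+ STING+/+) carry both genes. The labels give no age and do not say how either gene was inactivated. They also leave unsaid whether the 3 arrays of a genotype hold different animals, so the p-values below speak of the spread among arrays, which may be technical.

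The respiratory chain sits in the inner mitochondrial membrane. Complex I takes electrons from NADH and complex II from succinate, ubiquinone carries them to complex III, cytochrome c carries them to complex IV, and complex IV passes them to oxygen. Complexes I, III and IV pump protons, and complex V, the ATP synthase, makes ATP from the gradient. Colonocytes use this chain to burn butyrate from bacterial fermentation, and several subunits of complex IV exist as paired isoforms, 1 found widely and 1 restricted to muscle, testis or tissue low in oxygen.

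The targeted genes were read first. Sting1 had log2 signals of 4.23, 4.13 and 4.34 in DKO and 4.40, 4.32 and 4.28 in SKO, against 6.87, 8.09 and 7.33 in IL10KO and 7.51, 6.40 and 4.56 in WT. The library labelled WT replicate 3 therefore lay near the STING-deficient arrays. Il10 was brighter in IL10KO, at 4.59, 4.87 and 5.47, than in WT, at 3.65, 3.59 and 3.80, and which part of the gene its probes read is unknown here. Tissue markers also moved between arrays. The 19 pancreatic acinar genes deviated from their 12-array means by a median of 1.58 and 6.08 in WT replicates 1 and 2 and of -0.85 in WT replicate 3. The 17 smooth muscle genes deviated from theirs by -0.73 to -0.48 in IL10KO and 0.11 to 0.23 in WT. Because a bulk sample mixes cell types, fewer cells of a type and less RNA per cell cannot be told apart.

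Across arrays, the subunit genes stayed close together. The median subunit gene deviated from its own 12-array mean by -0.02, -0.11 and 0.22 in the IL10KO arrays, 0.00, 0.09 and 0.09 in DKO, -0.03, -0.11 and 0.02 in SKO, and -0.04, -0.09 and 0.00 in WT (log2). IL10KO replicate 3 stood highest of all 12 arrays, and the other 2 IL10KO arrays lay within the range of the SKO arrays. In IL10KO replicate 3, 59 of the 80 genes lay above their own 12-array median, against 37 and 21 in replicates 1 and 2. The DKO arrays had 42, 60 and 60 genes above, the SKO arrays 31, 23 and 53, and the WT arrays 36, 14 and 44. The share above ran from 17.5% to 75% per array for the subunit genes, and from 40.3% to 53.7% for all 22180 genes.

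**Figure D1:**
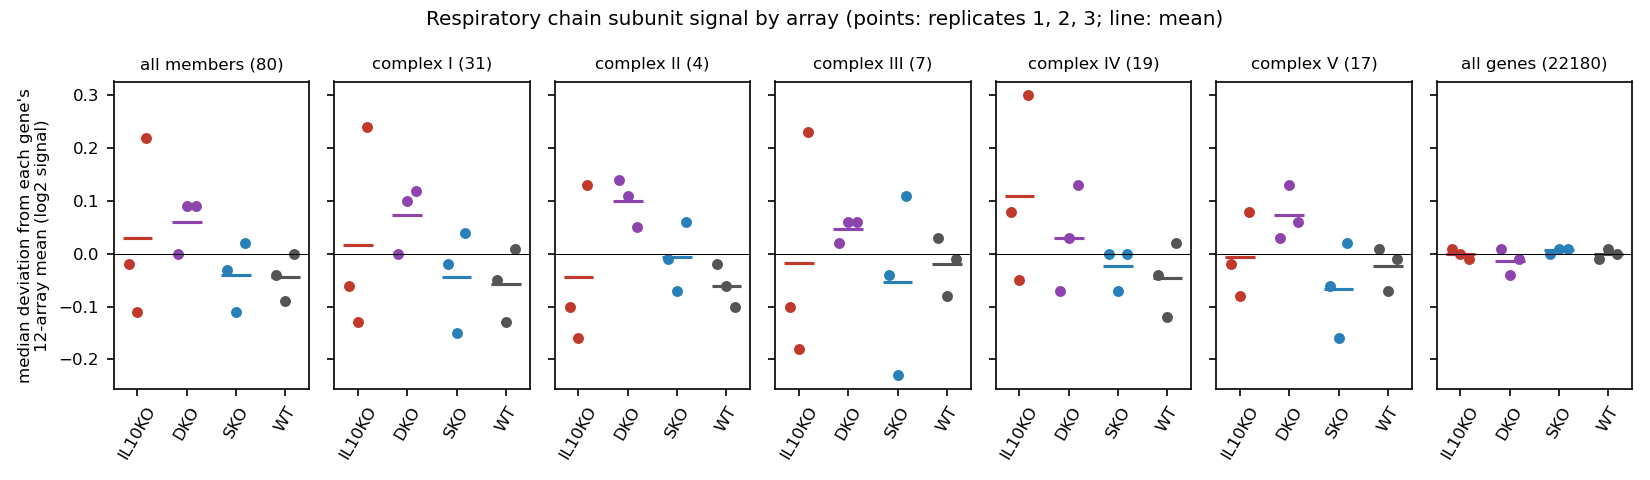
Median deviation of the subunit genes from their own 12-array mean (log2 signal), per array, for all 80 genes, for each complex and for all 22180 genes. Points are replicates 1, 2 and 3 and lines are group means. IL10KO replicate 3 reached 0.22 over all 80 genes, and it was the highest array for complexes I, III and IV.

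The same array pattern ran through most complexes. For complex I the IL10KO medians were -0.06, -0.13 and 0.24, against -0.05, -0.13 and 0.01 in WT. For complex IV they were 0.08, -0.05 and 0.30, against -0.04, -0.12 and 0.02. The IL10KO spread was therefore as wide as the shift itself, and its 3 arrays overlapped WT for every complex. Complex II differed in its order of arrays: the DKO medians of 0.14, 0.11 and 0.05 lay above the WT medians of -0.02, -0.06 and -0.10 with no overlap. With 4 genes behind each median, that separation is a description only.

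Loss of interleukin-10 with STING present (IL10KO against WT) brought no subunit gene past the threshold. Of 80 genes, 0 had an adjusted p under 0.05 in limma, where 8.14% of all 22180 genes did (693 higher and 1112 lower in IL10KO). At an unadjusted p under 0.05 there were 12, or 15.0%, against 26.2% of all genes. The median subunit gene differed by 0.07 (all genes 0.03), 50 of 80 lay above 0 (62.5%, against 53.6% of all genes), and the middle 50% of them ran from -0.10 to 0.26. By complex the medians were 0.04 for I, 0.02 for II, 0.06 for III, 0.13 for IV and 0.02 for V. Differences beyond 0.5 either way occurred in 4 of 80 genes (5.0%), against 15.2% of all genes. In 75 of 80 genes the 95% interval of the difference lay within 1 log2 unit of 0, so for these a change of over 2-fold is outside the interval, while smaller ones are not.

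**Figure D2:**
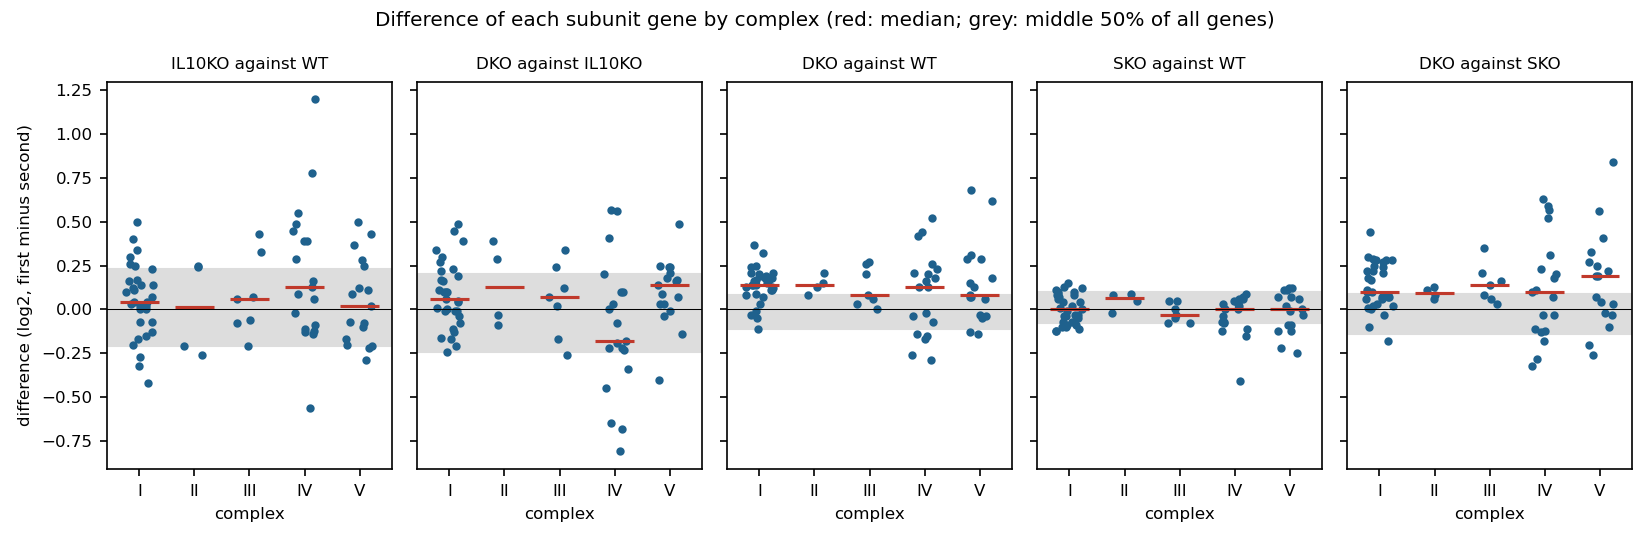
Difference of each subunit gene (first genotype minus second, log2) by complex in 5 comparisons, with the median of each complex in red and the middle 50% of all 22180 genes in grey. Most subunit genes lie inside or near the grey band, and the lowest (-0.81) and the highest (1.20) belong to complex IV.

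Among the 31 complex I genes, 21 differences lay above 0 in IL10KO against WT, in a range from -0.42 to 0.50. Ndufa3, an accessory subunit, had signals of 9.74, 9.89 and 10.05 in IL10KO, against 10.25, 10.11 and 10.59 in WT. All 3 IL10KO arrays were below all 3 WT arrays, and the difference of -0.42 ± 0.15 (SE) had an adjusted p of 0.0885. Ndufc2, an accessory subunit of the membrane arm, had 10.17, 9.88 and 10.09 in IL10KO, against 9.72, 9.60 and 9.62 in WT. Here every IL10KO array was the higher one (difference 0.40 ± 0.14, adjusted p = 0.096). Ndufs1, a core subunit that carries iron-sulfur clusters, read 8.43, 8.59 and 8.36 in IL10KO and 8.90, 8.79 and 8.66 in WT. Its groups did not overlap either, at a difference of -0.32 ± 0.18 (adjusted p = 0.272). Subunits of 1 complex thus lay on both sides of WT with separated arrays. In all, 8 of the 80 subunit genes had every IL10KO array above every WT array, 10% against 14.0% of all genes, and 7 had every one below, 8.75% against 16.0% (18.8% against 30.0% for both directions).

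Complex II is succinate dehydrogenase, which also serves the citric acid cycle, and its 4 genes split evenly. Sdha, the flavoprotein that oxidises succinate, had 10.32, 10.46 and 10.36 in IL10KO, against 10.67, 10.63 and 10.47 in WT (difference -0.21 ± 0.12, adjusted p = 0.279). Sdhc, a membrane anchor that helps bind ubiquinone, had 8.71, 8.75 and 9.08 against 9.27, 8.88 and 9.18 in WT (-0.26 ± 0.17, adjusted p = 0.34). The lower values in IL10KO were without overlap for Sdha and with overlap for Sdhc. Sdhd, the other anchor, had 9.88, 9.90 and 10.12 in IL10KO, against 9.63, 9.81 and 9.73 in WT, all 3 higher (0.25 ± 0.12, adjusted p = 0.222). Sdhb, the iron-sulfur subunit, had 9.08, 8.63 and 9.16 against 8.70, 8.76 and 8.69 (0.24 ± 0.15, adjusted p = 0.333), with IL10KO replicate 2 below every WT array. None of the 4 passed the test.

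Complex III, which hands electrons from ubiquinol to cytochrome c, ranged from -0.21 to 0.43 over 7 genes. The core proteins Uqcrc1 and Uqcrc2 lay between 10.20 and 10.35 and between 9.97 and 10.40 in IL10KO, against 10.25 to 10.42 and 10.25 to 10.50 in WT. Uqcr11, a small accessory subunit, had 7.40, 6.97 and 7.46 in IL10KO and 6.83, 6.97 and 7.04 in WT (0.33 ± 0.15, adjusted p = 0.17). The IL10KO arrays with the higher values were replicates 1 and 3, and replicate 2 equalled a WT array.

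Complex IV held the widest spread, from -0.56 to 1.20, and the differences at both ends belonged to muscle isoforms. Cox8b, the heart and skeletal muscle isoform of subunit VIII in rodents, had 4.58, 4.44 and 6.33 in IL10KO, against 3.81, 4.26 and 3.66 in WT. IL10KO replicate 3 stood far above the rest, and no array overlapped (1.20 ± 0.39, adjusted p = 0.0698). Without that array the difference was 0.60. The WT signals of Cox8b were near the floor, since the lower quartile of all genes was 3.97, 4.02 and 3.96 in the WT arrays. Cox6a2, the muscle isoform of subunit VIa, had 4.79, 4.79 and 6.15 in IL10KO and 4.79, 4.45 and 4.17 in WT, again with replicate 3 alone standing out (0.78 ± 0.29, adjusted p = 0.114, and 0.32 without replicate 3). Cox7a1, the muscle isoform of subunit VIIa, ran the other way, at 7.92, 7.85 and 8.69 in IL10KO, against 8.74, 8.71 and 8.70 in WT. Replicates 1 and 2 were low and replicate 3 lay almost level with WT (-0.56 ± 0.19, adjusted p = 0.0777). With IL10KO replicate 3 left out the difference was -0.83 at an adjusted p of 0.00447, which passes, and over all alternatives the adjusted p of Cox7a1 ran from 0.00447 to 0.46.

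The widely expressed partners of these isoforms differed little. Cox8a had 10.92, 11.16 and 11.14 in IL10KO, against 11.24, 11.04 and 11.30 in WT (-0.12 ± 0.13). Cox6a1 had 12.35, 12.54 and 12.49, against 12.56, 12.49 and 12.65 (-0.11 ± 0.12), and Cox7a2 had 10.33, 10.11 and 10.38, against 10.10, 10.03 and 10.30 (0.13 ± 0.13). All 3 overlapped between the genotypes, and the adjusted p of each was at least 0.577. Cox4i2, a lung isoform of subunit IV tied to oxygen supply, had 5.32, 5.13 and 5.54 in IL10KO and 5.16, 5.24 and 5.33 in WT (0.09 ± 0.16, adjusted p = 0.763). Its partner Cox4i1 had the larger difference, at 10.32, 9.79 and 10.56 in IL10KO, against 9.79, 9.66 and 10.06 in WT (0.39 ± 0.21, adjusted p = 0.243). Both overlapped between the genotypes. Ndufa4l2, a relative of Ndufa4 known as a target of hypoxia-inducible factor, had 5.59, 5.50 and 6.96 in IL10KO, against 5.37, 5.24 and 5.81 in WT. Its excess again rested on IL10KO replicate 3 (0.55 ± 0.30, adjusted p = 0.266, and 0.07 without replicate 3). Ndufa4 itself had 10.18, 10.13 and 10.56 in IL10KO, all above the 9.95, 9.83 and 9.94 of WT (0.39 ± 0.14, adjusted p = 0.111). The testis isoforms Cox6b2 and Cox7b2 differed by 0.16 ± 0.15 and 0.29 ± 0.14, and their partners Cox6b1 and Cox7b by -0.02 ± 0.19 and -0.14 ± 0.38.

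Cox7a2l, a protein related to subunit VIIa that links complexes III and IV into supercomplexes, had the smallest p of the set in this comparison. Its signals were 8.47, 8.04 and 8.50 in IL10KO, against 7.82, 7.73 and 8.0 in WT. Every IL10KO array lay above every WT array, at a difference of 0.49 ± 0.15 and an adjusted p of 0.0628, and the adjusted p ran from 0.0141 to 0.574 over all alternatives.

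**Figure D3:**
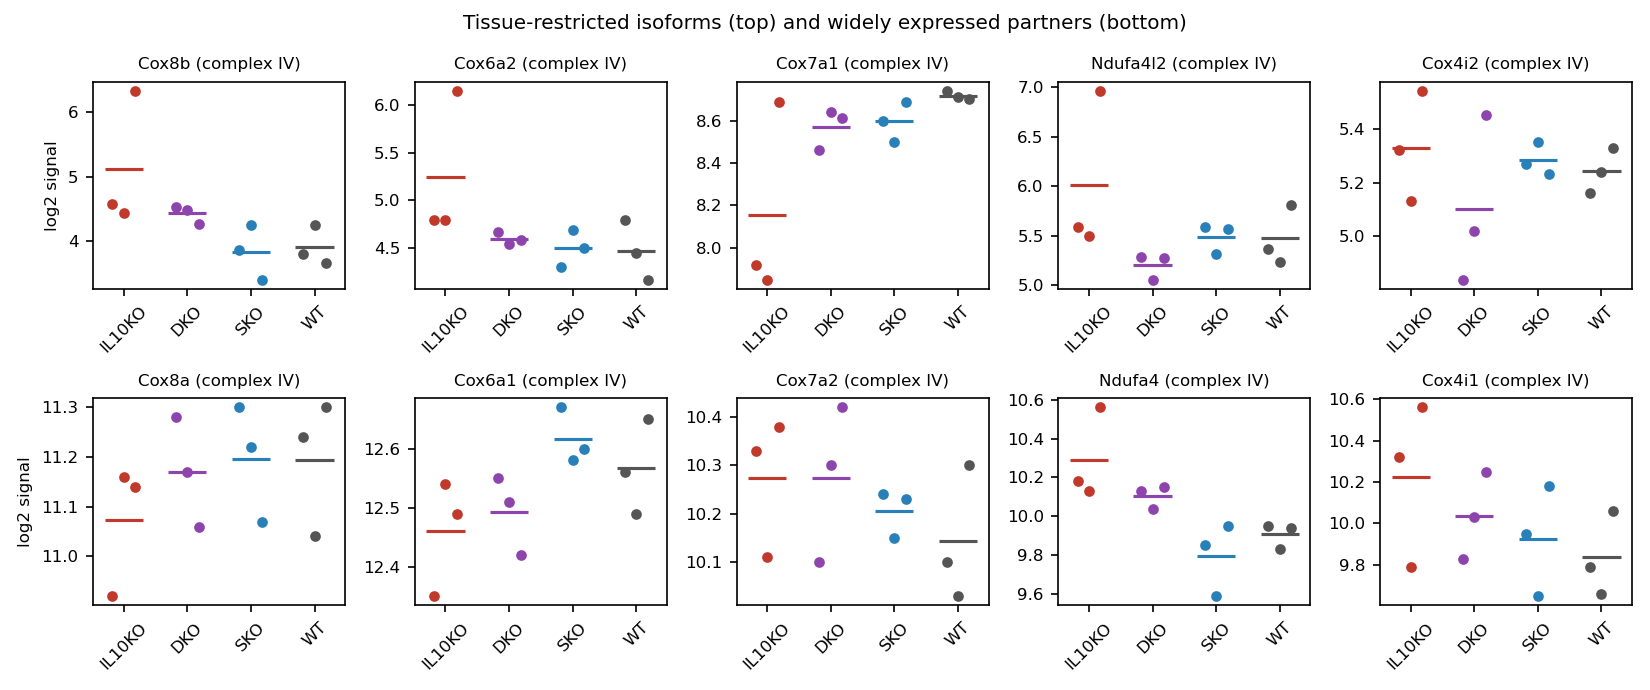
Log2 signal of 5 tissue-restricted genes (top) and their widely expressed partners (bottom) in each array, with lines at group means and a separate axis per gene. Cox8b, Cox6a2 and Ndufa4l2 are each highest in IL10KO replicate 3 (6.33, 6.15 and 6.96), and Cox7a1 is lowest in IL10KO replicates 1 and 2 (7.92 and 7.85).

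Muscle markers also differed between IL10KO and WT. Their lists were chosen with earlier results of these data known. Among all genes, 3.12% were called higher and 5.01% lower in this comparison. Of 25 skeletal muscle markers, 15 rose and 1 fell in IL10KO against WT (median difference 1.26), and their median deviation from the 12-array mean was 0.17, 0.56 and 1.64 in the IL10KO arrays, against -0.51, -0.43 and -0.46 in WT. Acta1, skeletal muscle actin, had 7.65, 9.59 and 10.43 in IL10KO, against 6.34, 6.68 and 6.99 in WT, and Ckm, muscle creatine kinase, had 6.97, 7.63 and 9.69, against 6.69, 6.99 and 7.17. Both were highest in IL10KO replicate 3, the array in which Cox8b, Cox6a2 and Ndufa4l2 were highest, and so were 19 of the 25 markers. The other 6 peaked elsewhere. Of these, Myh4, a fast myosin heavy chain, alone was highest in DKO replicate 3, at 6.63 against 5.50 in IL10KO replicate 3. In that DKO array the 25 markers deviated by a median of 0.18, and Cox8b and Cox6a2 stood at 4.27 and 4.58. The number of skeletal markers that rose was 5 without IL10KO replicate 3, and 3, 4 and 7 without WT replicates 1, 2 and 3. Of 17 smooth muscle markers, 13 fell, at a median of -0.76, and in all 3 IL10KO arrays they were low. Myh11, smooth muscle myosin, had 11.10, 11.24 and 10.74 in IL10KO, against 11.72, 11.90 and 11.74 in WT. The mean log2 level of the skeletal list ran from 5.61 to 6.98 in IL10KO and 5.02 to 5.06 in WT, and that of the smooth muscle list from 8.68 to 8.94 and 9.56 to 9.68. No detection call exists, so no marker can be given as absent, and the part of either tissue in the isoform values was not tested.

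**Figure D4:**
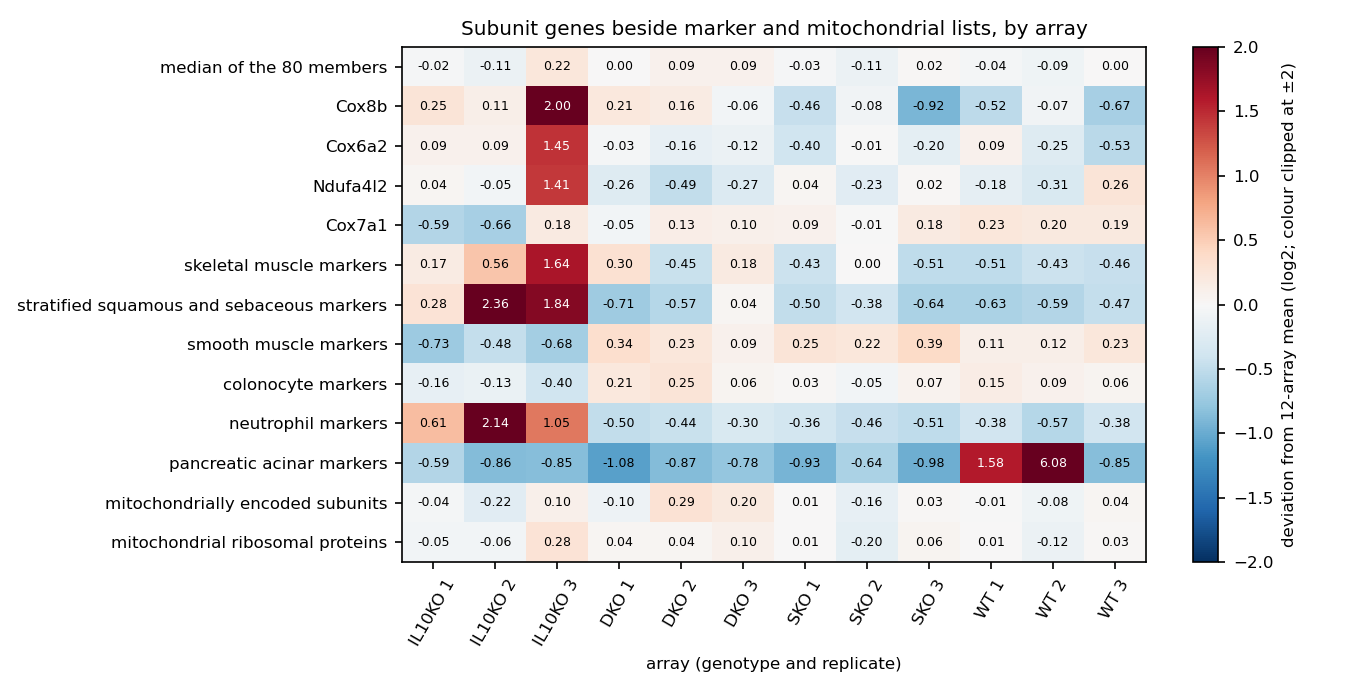
Deviation from the 12-array mean (log2, printed in each cell, colour limited at 2 either way) for the median subunit gene, 4 complex IV genes and the medians of marker and mitochondrial lists, by array. IL10KO replicate 3 is the highest array for skeletal muscle markers (1.64), Cox8b (2.0), Cox6a2 (1.45) and Ndufa4l2 (1.41).

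Complex V ranged from -0.29 to 0.50 over 17 genes, with 9 above 0. Atp5l, subunit g of the membrane sector, had 9.93, 9.68 and 10.39 in IL10KO, against 9.70, 9.13 and 9.68 in WT (0.50 ± 0.21, adjusted p = 0.154). Its IL10KO arrays were the higher ones apart from replicate 2, which lay within WT. Atp5c1, the gamma subunit that turns inside the catalytic head, had 6.78, 6.88 and 6.63 in IL10KO, against 7.17, 7.10 and 6.90 in WT, all 3 lower (-0.29 ± 0.13, adjusted p = 0.179). The catalytic subunits Atp5a1 and Atp5b lay between 11.56 and 11.89 in IL10KO and between 11.78 and 11.97 in WT. These 2 genes and Atp5c1 had their IL10KO values at or below the middle of WT, while Atp5l and Atp5md had theirs mostly above. Small subunits did not all lie on that side: Atp5mpl had 9.14, 9.11 and 9.62 in IL10KO, against 9.63, 9.16 and 9.66 in WT (-0.20 ± 0.23, adjusted p = 0.609).

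Single arrays decided how many subunit genes passed in IL10KO against WT. Leaving out IL10KO replicate 2, the array with the highest neutrophil markers (a median deviation of 2.14), let 8 genes pass as higher: Atp5e, Atp5k, Cox7a2l, Cox8b, Ndufb7, Ndufv1, Uqcr11 and Uqcrq. That is 10% of the set, against 4.93% of all genes called higher in the same fit, where 8.91% were called lower and 0 subunit genes were. Leaving out replicate 3 let Cox7a1 alone of the 80 pass, as lower, where 2.94% of all genes were called lower, and put the median of the 80 genes at -0.03. With WT replicates 1 and 2, the arrays with acinar signal, both left out, 0 passed and the median was 0.01.

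Loss of STING in the IL-10-deficient colon (DKO against IL10KO) is the comparison named in the design of the study. Here too 0 of 80 subunit genes had an adjusted p under 0.05 in limma, against 5.79% of all genes (740 higher and 544 lower in DKO), and 13 had an unadjusted p under 0.05 (16.2%, against 24.4% of all genes). The median subunit gene differed by 0.04 (all genes -0.04), and 47 of 80 lay above 0 (58.8%, against 45.5% of all genes). By complex the medians were 0.06 for I, 0.13 for II, 0.07 for III, -0.18 for IV (8 of 19 genes above 0) and 0.14 for V. Single arrays and the scaling set several of these signs. Without IL10KO replicate 2 the medians of I and III were -0.03 and -0.10, without IL10KO replicate 3 that of IV was -0.05, and with quantile normalization those of I, II, III and IV were -0.05, -0.03, -0.08 and -0.14 and that of V was 0.03. Arrays were separated upward in 10 genes (12.5%, against 13.4% of all genes) and downward in 5 (6.25%, against 13.8%), 18.8% of the set against 27.2% of all genes in total. The 95% interval lay within 1 log2 unit of 0 in 75 of 80 genes.

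Ndufa3 had the smallest p of the set in DKO against IL10KO. Its DKO signals of 10.39, 10.47 and 10.29 lay above the 9.74, 9.89 and 10.05 of IL10KO with no overlap, at a difference of 0.49 ± 0.15 and an adjusted p of 0.0625. The adjusted p ran from 0.0334 to 0.19 over the alternatives and passed under 3 of them: arrays centred on their medians, the dimmest genes left out, and a trended and robust prior. Ndufs1 read 9.14, 8.89 and 8.71 in DKO, against 8.43, 8.59 and 8.36 in IL10KO, all higher (0.45 ± 0.18, adjusted p = 0.143). Sdha had 10.70, 10.70 and 10.61 in DKO, against 10.32, 10.46 and 10.36 in IL10KO (0.29 ± 0.12, adjusted p = 0.148), and Sdhc had 9.31, 9.26 and 9.13, against 8.71, 8.75 and 9.08 (0.39 ± 0.17, adjusted p = 0.178). In Sdha and Sdhc every DKO array was above every IL10KO array. Sdhb and Sdhd had overlapping arrays, at -0.03 ± 0.15 and -0.09 ± 0.12.

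Of complex IV, Cox5b, a subunit on the matrix side, had 10.46, 10.58 and 10.62 in DKO, against 9.81, 9.75 and 10.39 in IL10KO, with no overlap (0.57 ± 0.23, adjusted p = 0.152). Cox6b2 had 5.08, 5.04 and 5.18 in DKO, all below the 5.43, 5.41 and 5.80 of IL10KO (-0.45 ± 0.15, adjusted p = 0.0967). Ndufa4l2 had 5.29, 5.06 and 5.28 in DKO, below the 5.59, 5.50 and 6.96 of IL10KO (-0.81 ± 0.30, adjusted p = 0.122), and the difference was -0.33 without IL10KO replicate 3. The muscle isoforms kept the marks of single IL10KO arrays. Cox8b had 4.54, 4.49 and 4.27 in DKO, within the range of IL10KO replicates 1 and 2 or just below (-0.68 ± 0.39, adjusted p = 0.288, and -0.08 without replicate 3). Cox6a2 had 4.67, 4.54 and 4.58 in DKO, all below IL10KO (-0.65 ± 0.29, adjusted p = 0.193, and -0.19 without replicate 3). Cox7a1 had 8.46, 8.64 and 8.61 in DKO, between the low and the high IL10KO arrays (0.41 ± 0.19, adjusted p = 0.19). Without IL10KO replicate 3 the Cox7a1 difference was 0.68 at an adjusted p of 0.0146, and without replicate 2 Ndufa4l2 passed as lower, at -1.07 and 0.0466. Over all alternatives the adjusted p ran from 0.0146 to 0.483 for Cox7a1 and from 0.0465 to 0.28 for Ndufa4l2. Cox7b2 had 2.05, 2.13 and 2.07 in DKO, all below the 2.57, 2.35 and 2.33 of IL10KO (-0.34 ± 0.14, adjusted p = 0.16). These signals are near the floor, below the lower quartile of all genes, which ran from 3.90 to 4.26 per array. Cox4i2 differed by -0.23 ± 0.16. The partners overlapped between DKO and IL10KO, at -0.19 ± 0.21 for Cox4i1, 0.03 ± 0.12 for Cox6a1, 0.20 ± 0.19 for Cox6b1, 0.00 ± 0.13 for Cox7a2, 0.56 ± 0.38 for Cox7b, 0.10 ± 0.13 for Cox8a and -0.18 ± 0.14 for Ndufa4. Smooth muscle markers rose in 13 of 17 cases in this comparison (median 0.81), where 3.34% of all genes were called higher. Skeletal muscle markers fell in 4 of 25 (median -0.84), where 2.45% of all genes were called lower. That skeletal count was 0 without IL10KO replicate 3 or DKO replicate 2. The part of either tissue in these values was not tested.

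**Figure D5:**
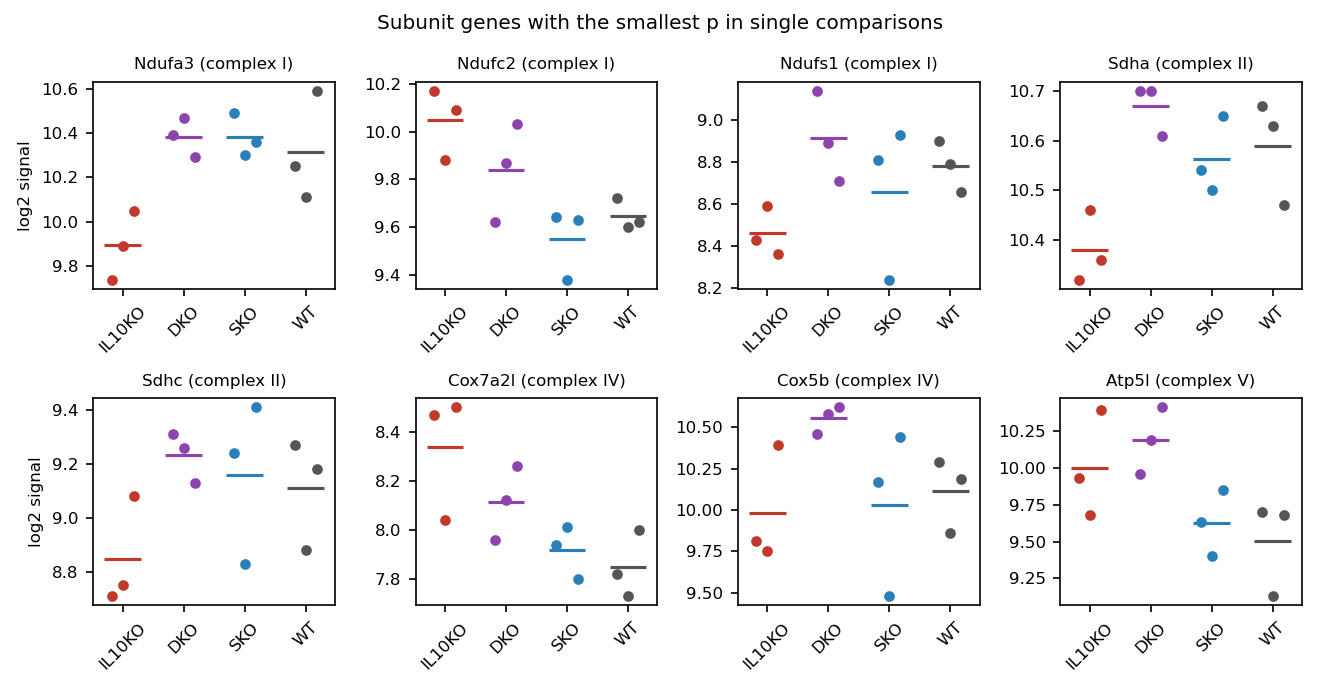
Log2 signal of 8 subunit genes named in the text, by array, with lines at group means and a separate axis per gene. Despite the title in the figure, the 8 are a selection and not a ranking by p, and some genes with a smaller p are left out. Ndufa3, Ndufs1, Sdha and Sdhc are higher in all 3 DKO arrays than in all 3 IL10KO arrays, and Cox7a2l is higher in all 3 IL10KO arrays (8.04 to 8.50) than in WT (7.73 to 8.0).

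The double knockout and the single STING knockout were next set against WT. In DKO against WT, 0 of 80 genes passed in limma, against 0.0451% of all genes (10 in all), and 2 had an unadjusted p under 0.05 (2.5%, against 2.92% of all genes). Sting1 did not pass in that fit either (-1.92 ± 0.52, adjusted p = 0.679), and WT replicate 3 read near the STING-deficient arrays for it. With that array left out, 35 of all genes were called higher and 34 lower, and 0 of the 80 subunit genes passed. Of the 80 differences, 62 (77.5%) lay above 0, against 45.6% of all genes, at a median of 0.13 against -0.02. Subunit genes shift together by array, so these are not 80 separate observations. By array the medians of the set met, at 0.00 in both DKO replicate 1 and WT replicate 3. With WT replicates 1 and 2 both left out, the median difference was 0.08. Every gene of complex II had a difference above 0, 27 of 31 genes of complex I did, and complex III ran from 0.00 to 0.27. Separated arrays were seen upward in 13 genes (16.2%, against 4.34% of all genes) and downward in 2 (2.5%, against 5.06%), 18.8% of the set against 9.4% of all genes in total. Atp5l had 9.96, 10.19 and 10.41 in DKO, against 9.70, 9.13 and 9.68 in WT, with no overlap (0.68 ± 0.21, adjusted p = 0.983). Atp5e, the epsilon subunit, had 8.55, 9.25 and 9.04 against 8.36, 8.51 and 8.11 (0.62 ± 0.31, adjusted p = 1.0). Ndufb6, an accessory subunit of complex I, had 8.22, 8.31 and 8.31 in DKO, above the 7.98, 7.86 and 8.06 of WT (0.32 ± 0.13). Atp5md, a small membrane subunit of the synthase, differed by 0.31 ± 0.16, and Cox6b2 by -0.29 ± 0.15. The DKO arrays were separated from WT in each of these 5 genes, and none of the differences passed the test. The complex II differences were 0.08 ± 0.12 for Sdha, 0.21 ± 0.15 for Sdhb, 0.13 ± 0.17 for Sdhc and 0.15 ± 0.12 for Sdhd. Among the other tissue-restricted isoforms Cox8b stood at 0.52 ± 0.39, Cox6a2 at 0.13 ± 0.29, Cox7a1 at -0.15 ± 0.19, Cox4i2 at -0.14 ± 0.16, Cox7b2 at -0.04 ± 0.14 and Ndufa4l2 at -0.26 ± 0.30. Their partners, with Cox6b1, ran from -0.07 ± 0.12 (Cox6a1) to 0.42 ± 0.38 (Cox7b), with Cox8a at -0.02, Cox7a2 at 0.13, Cox6b1 at 0.18, Ndufa4 at 0.20 and Cox4i1 at 0.21.

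In SKO against WT, 0 of 80 subunit genes and 0.0% of all genes passed, and at an unadjusted p under 0.05 the set again gave 0, against 2.05% of all genes. Sting1, the targeted gene, was itself not called here (-1.82 ± 0.52), with WT replicate 3 at 4.56. The count of 0 is therefore weak evidence that STING loss changes nothing. Without WT replicate 3, 23 of all genes were called higher and 32 lower, and 0 of the 80 subunit genes passed. The median difference was 0.00, 43 of 80 lay above 0 (53.8%, against 53.3% of all genes), the range was -0.41 to 0.29, and every one of the 80 intervals lay within 1 log2 unit of 0. The 5 smallest p-values belonged to Cox7c (-0.41 ± 0.21), Atp5c1 (-0.25 ± 0.13), the pseudogene Uqcrh-ps1 (0.29 ± 0.26), Ndufs7 (0.15 ± 0.13) and Atp5g3 (-0.12 ± 0.12), each at an adjusted p of 1.0. Their arrays overlapped in all 5. Sdha, Sdhb, Sdhc and Sdhd differed by -0.02, 0.08, 0.05 and 0.09. The tissue-restricted isoforms ran from -0.12 ± 0.19 for Cox7a1 to 0.06 ± 0.14 for Cox7b2, with Cox8b at -0.07, Ndufa4l2 at 0.02, Cox6a2 and Cox6b2 at 0.03 and Cox4i2 at 0.04. Their partners ran from -0.15 ± 0.38 for Cox7b to 0.09 ± 0.21 for Cox4i1, with Ndufa4 at -0.11, Cox6b1 and Cox8a at 0.00, Cox6a1 at 0.05 and Cox7a2 at 0.06. Arrays were separated upward in 0 genes, where 3.75% of all genes were, and downward in 2, Atp5j and Cox7a1 (2.5%, against 2.46%), in total 2.5% of the set against 6.21% of all genes.

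In DKO against SKO, which shows the loss of interleukin-10 where STING is absent, 0 of 80 genes passed, against 0.0451% of all genes, and 7 had an unadjusted p under 0.05 (8.75%, against 4.77% of all genes). Differences above 0 made up 63 of 80, or 78.8%, against 43.5% of all genes, at a median of 0.10 against -0.03. In complex I they were 28 of 31. By array the medians of the set overlapped, with DKO replicate 1 at 0.00 and SKO replicate 3 at 0.02. Cox7c, a small subunit of complex IV, had 5.47, 5.59 and 5.74 in DKO, against 4.99, 5.36 and 4.55 in SKO, with no overlap (0.63 ± 0.21, adjusted p = 0.869). Atp5e had 8.55, 9.25 and 9.04 against 8.15, 7.93 and 8.24, also without overlap (0.84 ± 0.31, adjusted p = 0.962). Atp5l, Cox5b and Ndufb6 followed at 0.56 ± 0.21, 0.52 ± 0.23 and 0.30 ± 0.13. Sdha, Sdhb, Sdhc and Sdhd differed by 0.11, 0.13, 0.08 and 0.06. Among isoforms, Cox8b and Ndufa4 had separated arrays upward (0.59 ± 0.39 and 0.31 ± 0.14), and Cox6b2, Ndufa4l2 and Cox6a1 downward (-0.32 ± 0.15, -0.28 ± 0.30 and -0.12 ± 0.12). The SKO signals of Cox8b, 3.87, 4.25 and 3.41, were near the floor. The remaining isoforms overlapped, at 0.10 for Cox6a2, -0.03 for Cox7a1, -0.18 for Cox4i2, -0.11 for Cox7b2, 0.11 for Cox4i1, 0.18 for Cox6b1, 0.07 for Cox7a2, 0.57 for Cox7b and -0.03 for Cox8a. Arrays were separated upward in 12 genes (15.0%, against 4.87% of all genes) and downward in 6 (7.5%, against 6.28%), 22.5% of the set against 11.1% of all genes in total. The comparison shares its DKO arrays with that against WT, so the excess of differences above 0 in both is not 2 separate observations. When arrays were weighted by their fit, 6 genes passed as higher in DKO than in SKO (Atp5e, Atp5g3, Atp5l, Atp5md, Cox7c and Ndufb6), 7.5% of the set against 3.2% of all genes. The estimate of those weights stopped before it settled, and it gave SKO replicate 1 a weight of 13.6, against 0.275 and 0.929 for SKO replicates 2 and 3, so that this comparison leaned mostly on 1 SKO array.

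Whether the effect of losing interleukin-10 differed with STING was tested as the DKO minus SKO difference less the IL10KO minus WT difference. It passed in 0 of 80 subunit genes in limma, against 0.645% of all genes, and 4 had an unadjusted p under 0.05 (5.0%, against 15.7% of all genes), and 44 lay above 0 (55.0%, against 45.7%). Among the 5 genes with the smallest p, Ndufs1 had the largest estimate, at 0.58 ± 0.25 (adjusted p = 0.296), followed by Atp5c1 at 0.48 ± 0.19 (adjusted p = 0.251) and Ndufa12, an accessory subunit of complex I, at 0.41 ± 0.18. Atp5o, the stalk subunit that confers sensitivity to oligomycin, and Cox6b2 stood at -0.51 ± 0.24 and -0.48 ± 0.21. Sdha, Sdhb, Sdhc and Sdhd stood at 0.32, -0.11, 0.34 and -0.19. The other tissue-restricted isoforms stood at -0.62 for Cox8b, -0.67 for Cox6a2, 0.53 for Cox7a1, -0.27 for Cox4i2, -0.40 for Cox7b2 and -0.83 for Ndufa4l2, and the widely expressed ones at 0.09 for Cox8a, -0.02 for Cox6a1, -0.06 for Cox7a2, -0.28 for Cox4i1, 0.20 for Cox6b1, 0.71 for Cox7b and -0.08 for Ndufa4. These estimates carry the error of 4 groups, and in 66 of 80 genes the interval lay within 1 log2 unit of 0.

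For some genes the sign depended on which probe set stood for them. Of the 9 subunit genes with more than 1 probe set, 4 had probe sets of opposite sign in IL10KO against WT, 1 in DKO against IL10KO, 2 in DKO against WT, 4 in SKO against WT, 3 in DKO against SKO and 5 in the difference of the IL-10 effect. Ndufa11, which helps hold complex I together, had a brightest probe set that differed by 0.26 ± 0.15 (adjusted p = 0.349) and a dimmer one that differed by 0.88 ± 0.16 (adjusted p = 0.0159) in IL10KO against WT, both adjusted over all probe sets. The dimmer probe set of Cox5b (mean signal 4.69) differed by 0.03 ± 0.17 in DKO against IL10KO, where the brightest gave 0.57. In DKO against SKO they gave 0.14 ± 0.17 and 0.52. For Ndufa12 the dimmer probe set gave -0.09 ± 0.58 in the difference of the IL-10 effect, where the brightest gave 0.41. For Atp5e the dimmer one was on the same side, at 0.57 ± 0.29 in DKO against SKO.

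Other genes of the same pathways were read from lists. The 10 measured subunits encoded by mitochondrial DNA gave 0 calls in IL10KO against WT and in DKO against IL10KO, at medians of -0.04 and 0.18. Among 46 assembly factors, which build the complexes, 1 fell in IL10KO against WT and 0 passed in DKO against IL10KO (medians -0.04 and 0.13). The one that fell was Cox18, which inserts a mitochondrial subunit of complex IV into the membrane, at -0.79 ± 0.21 (adjusted p = 0.0358). The 18 genes of cytochrome c and ubiquinone synthesis and the 18 of the citric acid cycle gave 0 calls in either comparison. The citric acid cycle medians were -0.20 and 0.21. Of 71 mitochondrial ribosomal protein genes, Mrpl49 alone passed, lower in IL10KO than in WT by -0.58 ± 0.15 (adjusted p = 0.0283) and higher in DKO than in IL10KO by 0.67 ± 0.15 (adjusted p = 0.0186). Of all genes, 5.01% were called lower in IL10KO against WT and 3.34% higher in DKO against IL10KO, so these single calls set neither list apart.

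Genes that regulate mitochondrial content were read next. Of 20 such genes, 2 fell and 0 rose in IL10KO against WT, where 5.01% of all genes were called lower and 3.12% higher, so that 2 of 20 is too few to set the list apart, at a list median of -0.22 against 0.03 for all genes. Tfb1m, a methyltransferase of mitochondrial ribosomal RNA, fell by 0.85 ± 0.21 on the log2 scale to a mean of 6.59 in IL10KO, against 7.45 in WT (adjusted p = 0.0257). Ppargc1a, the coactivator that drives mitochondrial biogenesis, fell by 0.80 ± 0.21 to 7.73 in IL10KO, against 8.53 in WT (adjusted p = 0.0309). In DKO against IL10KO its relative Ppargc1b rose by 0.58 ± 0.15 to 7.45 in DKO, against 6.87 in IL10KO (adjusted p = 0.0369), at a list median of 0.25 against -0.04. Of 15 fatty acid oxidation genes, Hadh fell by 0.53 ± 0.14 in IL10KO against WT (adjusted p = 0.032). Of 21 glycolysis genes, Pgk1, phosphoglycerate kinase, rose by 0.46 ± 0.12 in IL10KO against WT (adjusted p = 0.0314), and Slc16a3, the exporter of lactate, fell by 0.80 ± 0.14 in DKO against IL10KO (adjusted p = 0.00587). The 12 genes of the response to low oxygen gave 0 calls, at medians of 0.23 and -0.06. In DKO against IL10KO, 3.34% of all genes were called higher and 2.45% lower. Beside these shares and those in IL10KO against WT, the single calls of Ppargc1b, Hadh, Pgk1 and Slc16a3 set no list apart.

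Markers of other cell types moved in the same comparisons. Their lists were chosen with earlier results of these data known, so the counts are a description only. Of all genes, 3.12% were called higher and 5.01% lower in IL10KO against WT. In DKO against IL10KO these shares were 3.34% and 2.45%. Of 23 colonocyte markers, 8 fell in IL10KO against WT (median -0.37) and 9 rose in DKO against IL10KO (median 0.49). These counts were 5 without WT replicate 1 and 5 without DKO replicate 1 or 2. Of 16 goblet cell markers, 5 fell (median -0.26) and 5 rose (median 0.34) in these comparisons, and of 17 neutrophil markers, 13 rose (median 1.66) and 13 fell (median -1.71). The goblet cell counts were 2 without WT replicate 2 or 3 and 3 without DKO replicate 1 or 2, and the neutrophil counts stayed between 11 and 14 over single omissions. The mean log2 level of the colonocyte list ran from 10.43 to 10.62 in IL10KO, against 10.88 to 10.93 in WT, and that of the neutrophil list from 6.02 to 7.37 in IL10KO, against 4.6 to 4.78 in WT. In IL10KO against WT, markers rose in 15 of 20 cases for stratified squamous and sebaceous cells, 5 of 17 for macrophages and monocytes, 3 of 14 for T cells, 2 of 13 for B and plasma cells and 2 of 14 for adipocytes. They fell in 5 of 16 cases for enteric neurons and glia and 5 of 19 for pancreatic acinar cells, and 0 of 9 pericyte markers passed. Single arrays moved most of these counts: the squamous one was 9 without IL10KO replicate 3 or WT replicate 3, the macrophage one 3 without IL10KO replicate 3 or WT replicate 2, the T cell one 0 without any of 6 arrays and 1 without WT replicate 3, and the acinar one 18 without WT replicate 3. Over single omissions the neuron and glia count ran from 4 to 6, the B and plasma cell one from 2 to 3 and the pericyte one from 0 to 1. The part of these cell types in the values of Ppargc1a, Tfb1m, Hadh and the other genes named was not tested.

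Some of the calls outside the subunits were lost in other fits. The Slc16a3 call held with every array left out in turn, at adjusted p-values from 0.0063 to 0.0355. The calls of Cox18, Tfb1m, Ppargc1a, Pgk1, Hadh and Mrpl49 in IL10KO against WT each ended when IL10KO replicate 1 or 3 or WT replicate 1 or 2 was left out, that of Mrpl49 in DKO against IL10KO when IL10KO replicate 1 or 3 or DKO replicate 1 was, and that of Ppargc1b when any 1 of 8 arrays was. A fit of the compared genotypes alone ended the calls of Cox18, Ppargc1a, Pgk1, Hadh and Ppargc1b, and those of Mrpl49 in both comparisons. Quantile normalization ended those of Hadh and Ppargc1b, and array weights that of Cox18. With WT replicates 1 and 2 both left out, the calls of Cox18, Tfb1m, Ppargc1a, Pgk1, Hadh and Mrpl49 in IL10KO against WT and of Ppargc1b in DKO against IL10KO all ended.

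The promoters of the subunit genes were compared with those of all genes, since nuclear respiratory factors are known to drive many of them. RefSeq promoters (GRCm38.p6) were found for 64 of the 80 genes, and the 250 bases before the start site were searched on both strands. The motif of nuclear respiratory factor 1, GCGCA and GCGC with any 1 base between them, stood in 11 of 64 (17.2%), against 4.23% of 27025 genes. The ETS motif read by GABP, CCGGAAG, stood in 12 of 64 (18.8%), against 7.83%. The YY1 motif, AAGAT followed by GGCGG, stood in 1 (1.56% against 0.359%), and the CArG box of serum response factor and the MEF2 site, both known from muscle genes, in 0 of 64 (against 1.62% and 3.42%). The median GC content was 56.4% for the subunit genes and 52.4% for all. A match is a description of letters and not of binding. In IL10KO against WT the median difference was -0.10 over the 11 genes with the factor 1 motif and 0.09 over the 53 without it, and in DKO against IL10KO it was 0.03 and 0.06. In DKO against WT these medians were -0.03 with the motif and 0.15 without, in DKO against SKO 0.03 and 0.16, and in SKO against WT -0.01 and 0.00. For the ETS motif the medians over 12 genes with it and 52 without were 0.15 and 0.06 in IL10KO against WT, 0.14 and 0.04 in DKO against IL10KO, 0.16 and 0.14 in DKO against WT, 0.16 and 0.11 in DKO against SKO and 0.04 and -0.02 in SKO against WT. None of these contrasts between genes was tested.

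The 120 bases before the start site are shown for Sdhd and Cox6a1, which with Atp5h held both motifs, and for the isoform pairs Cox8b with Cox8a and Cox7a1 with Cox7a2, of which none of the 4 genes held either motif. Capitals mark the factor 1 and ETS motifs, on either strand, and each line runs 5′ to 3′ on the strand of the gene. They lie at chr9:50603850-50603969 (minus, Sdhd), chr5:115348959-115349078 (minus, Cox6a1), chr7:140900447-140900566 (minus, Cox8b), chr19:7217617-7217736 (minus, Cox8a), chr7:30184051-30184170 (plus, Cox7a1) and chr9:79759854-79759973 (minus, Cox7a2).
Sdhd: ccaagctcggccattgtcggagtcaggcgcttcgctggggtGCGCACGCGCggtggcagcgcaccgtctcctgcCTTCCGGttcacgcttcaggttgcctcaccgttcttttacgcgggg
Cox6a1: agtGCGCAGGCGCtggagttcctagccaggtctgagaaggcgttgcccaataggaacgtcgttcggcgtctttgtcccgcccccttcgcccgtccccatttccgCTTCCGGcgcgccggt
Cox8b: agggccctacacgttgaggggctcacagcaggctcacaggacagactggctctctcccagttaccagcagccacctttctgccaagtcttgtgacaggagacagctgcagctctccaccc
Cox8a: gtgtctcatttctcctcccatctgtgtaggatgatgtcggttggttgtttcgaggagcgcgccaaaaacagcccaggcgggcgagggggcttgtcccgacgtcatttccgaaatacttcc
Cox7a1: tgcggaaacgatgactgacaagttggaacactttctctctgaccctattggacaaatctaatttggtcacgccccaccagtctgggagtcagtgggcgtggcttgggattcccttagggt
Cox7a2: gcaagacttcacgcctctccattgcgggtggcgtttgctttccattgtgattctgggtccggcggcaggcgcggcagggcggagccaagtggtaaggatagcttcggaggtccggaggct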

How the data were processed

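The authors deposited 1 table with a column for each of the 12 arrays, and its values are log2 signals of probe sets. The submitters' processing notes name Affymetrix Expression Console, version 1.3.1.187. Neither the background correction, the summary and the normalization nor the build of the array's design is stated in the sources used here, and the log2 scale was inferred from the range of the values and from array medians of 4.80 to 5.02. The platform annotation gave 1 symbol for 23521 of 41345 probe sets, several for 1814 and none for 16010. The brightest probe set stood for a gene, and no dim gene was filtered out.

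Values were used as deposited. One limma fit (version 3.58.1, R 4.3.3) took in the 12 arrays, with a mean per genotype and empirical Bayes (8 residual and 5.56 prior degrees of freedom), over 22180 genes. The p-values, 2-sided, were adjusted by Benjamini-Hochberg over all of these at a threshold of 0.05, and errors are standard errors of that fit. The steps were tested on simulated data. The subunit genes and the 22 gene lists were chosen with earlier results of these data known. In each comparison the 5 subunit genes with the smallest p are named where fewer than 5 passed, with the isoform pairs, all of complex II, Sting1, Il10 and up to 4 called genes of a list. The alternatives comprised quantile normalization, arrays centred on their medians, omission of the dimmest 33.3% of genes, averaged probe sets, a fit of the compared genotypes alone, a trended and robust prior (statmod 1.5.0), array weights and omission of each array in turn. Leaving out WT replicates 1 and 2 together, or IL10KO replicates 2 and 3 together, was added after the values were seen. Replicate numbers follow the order of the samples and pair nothing. Arrays have no read depth, so their number limits the precision.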

Additional observations from a re-analysis of the deposited data

How the results depend on the processing

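The count of 0 subunit genes passing held in DKO against WT, in SKO against WT and in the difference of the IL-10 effect under every alternative run. In IL10KO against WT the number higher was 3 with quantile normalization (Cox7a2l, Ndufa4 and Ndufc2), 2 with array weights, and 1 each with the dimmest genes left out, averaged probe sets (Ndufa11) and the trended and robust prior, and it ranged from 0 to 8 over single omissions, where the number lower ranged from 0 to 1. In DKO against IL10KO the number higher was 1 (Ndufa3) with centred arrays, without the dimmest genes and with the trended and robust prior, the number lower was 1 (Ndufa4l2) with array weights, and both ranged from 0 to 1 over single omissions. In DKO against SKO it was 6 with array weights. Under these settings other than single omissions, 3.06% to 3.86% of all genes were called higher in IL10KO against WT and 4.09% to 6.17% higher in DKO against IL10KO, against 1.25% to 3.75% and 1.25% to 1.35% of the subunit genes. With array weights, 2.89% of all genes were called lower in DKO against IL10KO, where Ndufa4l2 alone of the subunit genes was. With IL10KO replicates 2 and 3 both left out, only IL10KO replicate 1 remained, so no count of passing genes is given for that setting. The median of the 80 genes was then 0.03 in IL10KO against WT and 0.12 in DKO against IL10KO. Quantile normalization put the median of the 80 genes at -0.06 in DKO against IL10KO and at -0.09 in the difference of effects, and over single omissions the median in IL10KO against WT ranged from -0.03 to 0.16. The cause of these shifts was not tested. Genes near 0 changed sign without passing. In IL10KO against WT these were Cox6b1 and Cox8a with quantile normalization (0.12 and 0.01), Cox6b1 with array weights (0.04), Cox6b1 (-0.22 to 0.16), Cox7b (-0.48 to 0.26) and Cox4i2 (-0.02 to 0.19) over single omissions, with single values of 0.16, 0.04 and 0.00 for Cox6b1, 0.26 and 0.00 for Cox7b and -0.02 for Cox4i2, and Cox4i2, Cox6b2 and Cox7a2 with WT replicates 1 and 2 both left out (0.00, -0.03 and -0.03). In DKO against IL10KO they were Cox6a1, Cox7a2 and Cox8a with quantile normalization (-0.09, -0.14 and -0.06), Sdhb with centred arrays (0.02), Cox7a2 with IL10KO replicates 2 and 3 left out (-0.06), and over single omissions Cox6a1 (-0.02 to 0.07), Sdhb (-0.19 to 0.07, with 0.03, 0.07 and 0.04 above 0) and Cox7a2 (-0.08 to 0.09, with -0.08, -0.01 and -0.07 below 0). In SKO against WT they were Uqcrh-ps1 (-0.05 to 0.63 over single omissions) and, with WT replicates 1 and 2 left out, Cox7c (0.01) and Ndufs7 (-0.02). No paired analysis was possible because the labels give the genotypes no shared replicate numbers.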
